A study of Macaca mulatta with 28 samples.

Results

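The comparison described here is between drinkers of cohort 2 and drinkers of cohort 1, 17 of the 28 rhesus macaques in the series. Tissue punches of the ventral tegmental area (VTA), 1 per animal, were sequenced as bulk RNA with a kit that captures messenger RNA. All animals were males without a genetic modification. Drinkers could take ethanol freely for 12 months. Ethanol was then withdrawn 3 times for 30 days each, with 3 months of drinking in between, and tissue was taken when the last withdrawal ended. Members were chosen by animal number, which the labels join to the drinking category. The drinkers numbered from Heavy-10208 through Very Heavy-10215 form cohort 1 (n = 8), and those numbered from Very Heavy-10242 through Very Heavy-10252 form cohort 2 (n = 9). The labels give each drinker a category. Cohort 1 held 4 Heavy, 3 Very Heavy and 1 Low drinker, and cohort 2 held 6 Very Heavy, 2 Binge and 1 Heavy drinker. The controls, 8 of cohort 1 and 3 of cohort 2, drank no ethanol and served here only to show whether a difference between cohorts was also found without drinking. They were calorically yoked or housing controls, and the labels do not say which animal was which. Cohort and any difference in date of housing, dissection or sequencing cannot be told apart, and the category mix differs between the cohorts.

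The VTA is the midbrain nucleus in which the cell bodies of mesolimbic dopamine neurons lie, beside GABA and glutamate neurons and the oligodendrocytes of passing fiber tracts. Its dopamine neurons project to the nucleus accumbens and are excited by ethanol. A punch holds all of these cells, so a lower level of a cell type's transcripts cannot be told apart from fewer such cells.

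Between the cohorts, 104 of 13769 transcripts tested (0.755%) differed in drinkers at an adjusted p under 0.05, with 51 higher (0.37%) and 53 lower (0.385%) in cohort 2. The 51 higher ones included a prohormone convertase inhibitor (PCSK1N), a secreted protease inhibitor (CST3), a postsynaptic scaffold (SHANK3) and a histone methyltransferase (KMT2B). The 53 lower ones included nuclear-encoded subunits of the respiratory chain (NDUFB5, ATP5PB, NDUFA12, UQCRB), a proteasome subunit (PSMA3), the mTORC1 activator RHEB and the microtubule regulator STMN1. The median size of the 104 changes was 0.50 on the log2 scale. Values of the cohorts did not overlap for 26 of the 104, and for 36 (0.261%) of all transcripts tested. The test was edgeR's quasi-likelihood test with Benjamini-Hochberg adjustment over all transcripts tested. A fold change is always cohort 2 relative to cohort 1, and a normalized count is the estimated count of 1 listed transcript per gene, scaled by library size and TMM factor.

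How many transcripts passed depended on single animals. Without Binge-10243 only CDKN2AIPNL and PCSK1N passed. All 104 kept their direction and an unadjusted p under 0.05, with log2 fold changes at a median of 0.977 of those over 17 drinkers. The 104 were picked by p in these same drinkers, so such counts, here and below, are not independent support. Without the 3 cohort 1 drinkers with few CYTB counts (Heavy-10208, Very Heavy-10212 and Very Heavy-10214, described next), the count was also 2, the same transcripts. Without Very Heavy-10242 there were 13 and without Very Heavy-10214 there were 16, while without Low-10210 there were 150. Leaving out Very Heavy-10212, Very Heavy-10215, Binge-10246, Very Heavy-10247, Very Heavy-10248, Very Heavy-10249, Heavy-10251, Very Heavy-10252 or Heavy-10211 left between 29 and 68. Of the 104, 2 passed in all 17 such fits and 24 in at least 14. Without the 3 drinkers all 104 kept their direction and an unadjusted p under 0.05, and their log2 fold changes were at a median of 0.905 of the values over 17 drinkers.

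**Figure D1:**
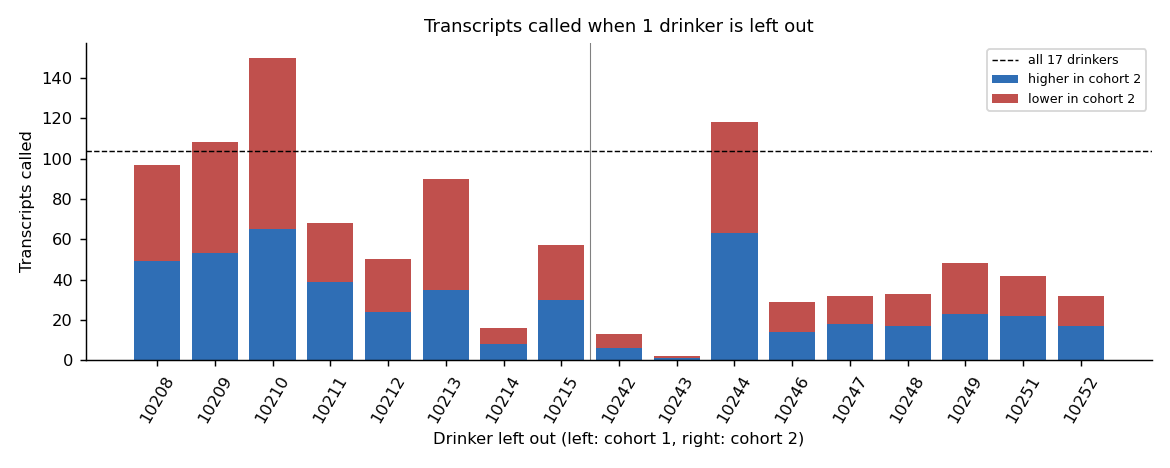
Number of transcripts called (adjusted p under 0.05, vertical axis) when the drinker on the horizontal axis is left out, with those higher in cohort 2 in blue and those lower in red. The dashed line is the count over all 17 drinkers, 104, and the bars run from 2 without Binge-10243 to 150 without Low-10210.

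Libraries of the cohorts differed in ways that stand beside every result. Total counts of the 17 drinkers lay between 14338548 and 26742948 and did not separate the cohorts (exact permutation test over 24310 splits, two-sided, p = 0.941). Mitochondrial transcripts made up 49.0% ± 6.69 (SD, n = 8) of counts in cohort 1 and 49.4% ± 5.14 (SD, n = 9) in cohort 2 (exact permutation p = 0.88). The number of transcripts with at least 1 count was 11303 ± 412 (SD, n = 8) in cohort 1 and 12403 ± 231 (SD, n = 9) in cohort 2, with no overlap between the cohorts. The exact permutation p of 4.11e-05 is the smallest that the splits allow (0.000247 after adjustment over 6 measures). After all libraries were thinned to the lowest total the gap was 1030 transcripts, with the same p in the exact permutation test. In controls the numbers ran from 11718 to 12550 in cohort 1 and from 12380 to 12696 in cohort 2, so the drinkers of cohort 1 had the fewest.

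The 3 cohort 1 drinkers Heavy-10208, Very Heavy-10212 and Very Heavy-10214 stood apart in mitochondrial transcripts. Their normalized counts of CYTB, which encodes cytochrome b of complex III, were 1466, 1644 and 6153. The other drinkers had 1185259 to 2176506, except Binge-10243 of cohort 2 with 229019. ND4L was at 50, 24 and 1259 in the same 3 libraries, and at 100140 to 254046 in the other 14 drinkers. ND6 was at 0, 0 and 55 in the 3 and at 5 in Binge-10243, and at 3772 to 17161 in the other 13 drinkers. Among cohort 1 controls, Control-10218 and Control-10221 had 266 and 358 CYTB counts, and Control-10217 had 244659 with 49 of ND4L. The first principal component of the 500 most variable transcripts, 28.9% of the variance, lay at −3.08 ± 7.27 (SD, n = 8) in cohort 1 and 2.74 ± 1.25 (SD, n = 9) in cohort 2 (exact permutation p = 0.0181, adjusted over 5 components 0.0452). Heavy-10208, Very Heavy-10212 and Very Heavy-10214 scored −11.99, −12.22 and −11.16 on it. The other cohort 1 drinkers scored 0.92 to 2.99, within the range of cohort 2 (0.12 to 4.14). With mitochondrially encoded transcripts left out, the first component held 15.1% of the variance and separated the cohorts without overlap (−8.85 to 1.47 against 1.99 to 3.27, exact permutation p = 4.11e-05, adjusted 0.000206).

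Libraries also differed in how counts depended on the base composition and the length of transcripts. For each library the log2 count relative to the mean of all 28 libraries was regressed on the GC content of the RefSeq transcript and on its length. The slope on GC content, per 10 percentage points, was −0.0558 ± 0.0456 (SD, n = 8) in cohort 1 and 0.00111 ± 0.0467 (SD, n = 9) in cohort 2 (exact permutation p = 0.0245, adjusted 0.049). The slope on length, per 10-fold length, was −0.252 ± 0.30 (SD, n = 8) in cohort 1 and 0.157 ± 0.206 (SD, n = 9) in cohort 2 (exact permutation p = 0.00391, adjusted 0.0117). The difference in GC slope was 0.057, and 0.0467 to 0.0665 when 1 drinker was left out. Its adjusted p stayed under 0.05 without Heavy-10209, Heavy-10211, Very Heavy-10212, Binge-10243, Very Heavy-10249 or Heavy-10251, and without any of the other 11 drinkers it was 0.0528 to 0.099 (exact permutation test). Without the 3 drinkers, the difference in GC slope was 0.0622, and the adjusted p was 0.0759 for GC content and 0.0465 for length. Drinker Very Heavy-10212 had the lowest length slope, −0.817. In controls the order of the GC slopes was the other way round, with 0.0643 ± 0.0657 (SD, n = 8) in cohort 1 and −0.0258 ± 0.0354 (SD, n = 3) in cohort 2. Length slopes of controls were in the same order as those of drinkers, 0.00464 ± 0.185 (SD, n = 8) in cohort 1 and 0.189 ± 0.206 (SD, n = 3) in cohort 2.

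**Figure D2:**
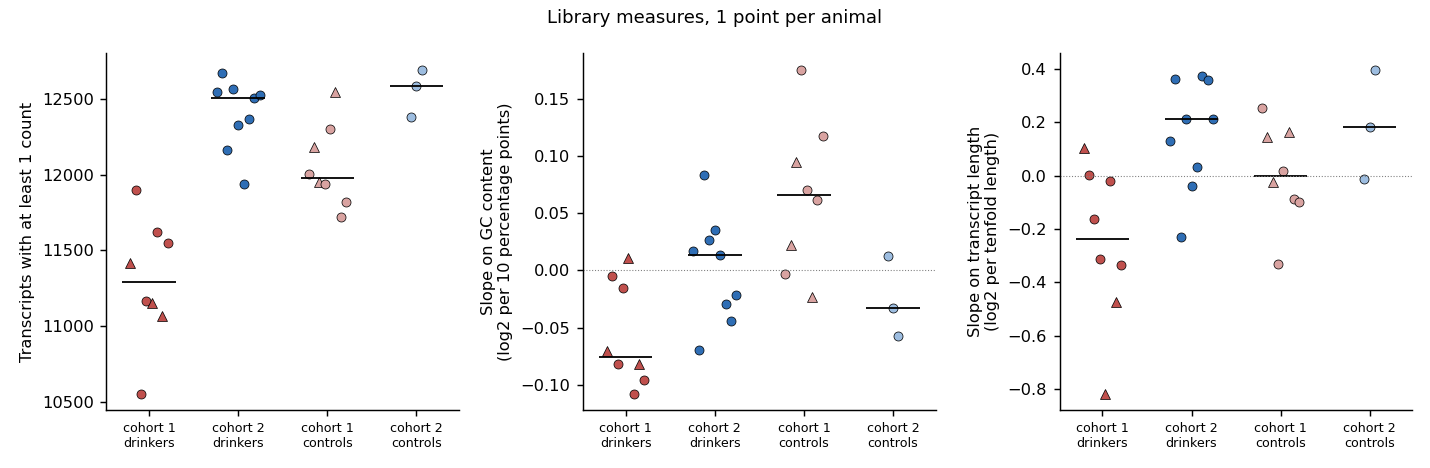
Number of transcripts with at least 1 count, slope on GC content and slope on transcript length (vertical axes) for each animal by group, with the group median as a line and, as triangles, the 3 libraries with the lowest CYTB counts in each cohort 1 group. Drinkers of cohort 1 lie lowest in transcripts with a count, from 10554 to 11898 against 11940 to 12676 in cohort 2 drinkers.

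Transcripts that passed in the 2 directions differed in composition and length. Those higher in cohort 2 had a median GC content of 60.2% and a median length of 4905 bases, and 46 of the 51 lay above the median GC content of all transcripts tested. Those lower had a median GC content of 43.8% and a median length of 2063 bases, and 11 of the 51 with a RefSeq sequence lay above that median. Coding sequence of 6 of these genes, read from Mmul_10 in the sense direction with G and C in capitals, shows the contrast. The windows are the middle 120 bases of each gene's longest coding exon, or all 90 bases for RHEB. PCSK1N (chrX:48833029-48833148, minus strand, 72.5% GC), CIC (chr19:41432383-41432502, plus strand, 69.2%) and KMT2B (chr19:35133917-35134036, plus strand, 70.8%) were higher in cohort 2.
PCSK1N: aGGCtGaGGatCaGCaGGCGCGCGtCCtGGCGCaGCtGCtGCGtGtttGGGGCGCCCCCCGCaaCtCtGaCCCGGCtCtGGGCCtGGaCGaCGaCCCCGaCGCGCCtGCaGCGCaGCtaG
CIC: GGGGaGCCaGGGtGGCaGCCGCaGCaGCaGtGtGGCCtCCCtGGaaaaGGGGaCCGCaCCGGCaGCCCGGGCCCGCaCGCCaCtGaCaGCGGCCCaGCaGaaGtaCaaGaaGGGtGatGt
KMT2B: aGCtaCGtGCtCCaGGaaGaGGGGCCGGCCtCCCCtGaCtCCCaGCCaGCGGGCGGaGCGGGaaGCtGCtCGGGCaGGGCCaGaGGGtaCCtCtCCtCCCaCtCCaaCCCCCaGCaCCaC
SNX10 (chr3:88752856-88752975, minus strand, 43.3% GC), RHEB (chr3:177465737-177465826, minus strand, 44.4%) and MMADHC (chr12:36771350-36771469, minus strand, 42.5%) were lower in cohort 2.
SNX10: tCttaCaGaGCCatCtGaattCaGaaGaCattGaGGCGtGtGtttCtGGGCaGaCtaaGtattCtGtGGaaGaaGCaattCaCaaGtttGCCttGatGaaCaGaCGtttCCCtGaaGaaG
RHEB: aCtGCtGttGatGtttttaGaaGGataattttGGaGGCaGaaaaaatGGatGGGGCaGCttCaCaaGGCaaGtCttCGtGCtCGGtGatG
MMADHC: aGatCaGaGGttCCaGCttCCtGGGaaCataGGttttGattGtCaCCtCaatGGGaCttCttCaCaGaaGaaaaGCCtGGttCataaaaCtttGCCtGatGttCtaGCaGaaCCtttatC

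Over transcripts with a mean normalized count of at least 50, the median log2 fold change of drinkers went up with GC content. In 5 equal groups from the lowest to the highest GC content it was −0.07, −0.03, 0.00, 0.04 and 0.13. The lowest group held 21 of the transcripts lower in cohort 2 and 0 of those higher, and the highest group held 2 and 28. In controls the same medians ran the other way, 0.11, 0.06, 0.01, −0.04 and −0.07. In 5 groups by length, from the shortest to the longest, medians went from −0.08 to 0.11 in drinkers and in the same direction, from −0.03 to 0.05, in controls. With a smooth trend on GC content subtracted from each library, 2 transcripts were higher and 6 lower (0.0581% of those tested) and all 104 kept their direction. Of these, 103 had an unadjusted p under 0.05, and their log2 fold changes were at a median of 0.88 of the values without the subtraction. The 8 were PLEKHA4, PTGR2, CAPZB, CDKN2AIPNL, MPC1, SMYD2, TATDN1 and TRNP1. With trends on GC content and length both subtracted, 3 passed (CDKN2AIPNL, PLEKHA4 and PTGR2), 99 of the 104 kept their direction with an unadjusted p under 0.05, and the median ratio was 0.764. With a trend on length alone 23 were higher and 64 lower.

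**Figure D3:**
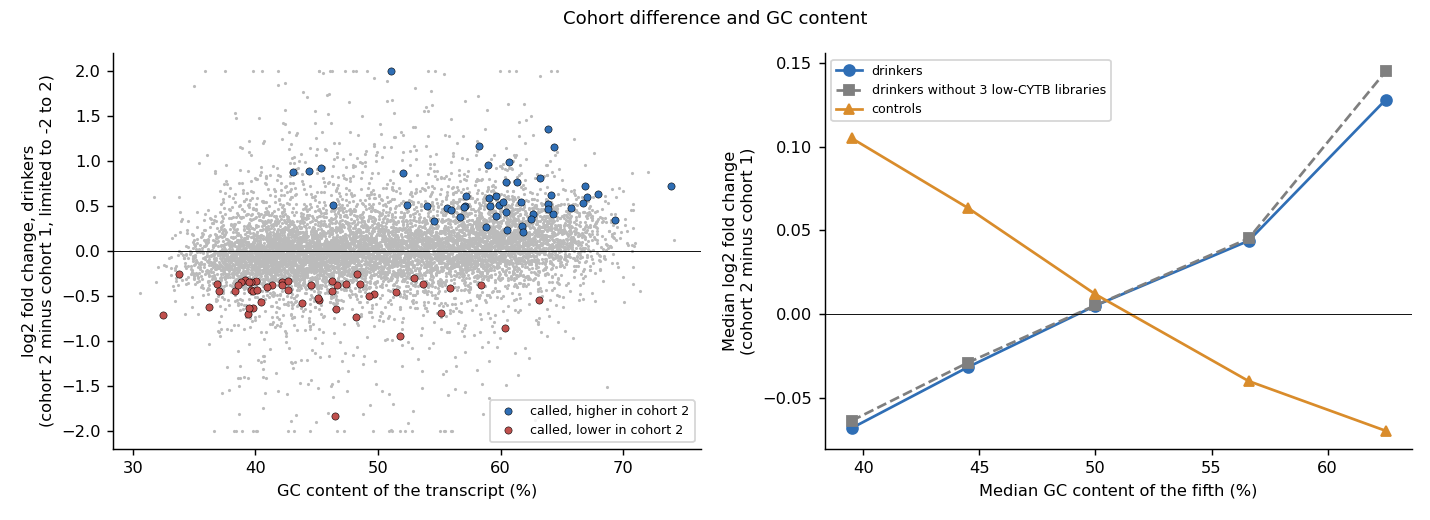
Left, log2 fold change of drinkers (cohort 2 minus cohort 1, drawn within −2 to 2) against GC content of the transcript in percent, for transcripts with a mean normalized count of at least 50, with those called higher in blue and lower in red. Right, median log2 fold change in 5 equal groups by GC content, which went from −0.07 to 0.13 in drinkers, from −0.06 to 0.145 without the 3 drinkers with few CYTB counts (dashed) and from 0.11 to −0.07 in controls.

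Among transcripts higher in cohort 2, the lowest p belonged to PCSK1N (ENSMMUT00000023134.4), which encodes proSAAS, an inhibitor of a prohormone convertase. Its gene lies on chromosome X of Mmul_10 from 48832081 to 48836922. Its normalized count ran from 1553 to 2521 with a median of 2079 in cohort 1, and from 2807 to 4454 with a median of 3295 in cohort 2. No drinker of cohort 1 reached the lowest of cohort 2, and the log2 fold change was 0.73 ± 0.098 (SE; edgeR, adjusted p = 0.00507). In controls the counts overlapped, from 2541 to 5964 in cohort 1 and 2816 to 3847 in cohort 2. CST3 encodes cystatin C, a secreted inhibitor of cysteine proteases that is abundant in brain. It ran from 859 to 2328 (median 1631) in cohort 1 and from 2968 to 7801 (median 3583) in cohort 2, again without overlap, with a log2 fold change of 1.36 ± 0.231 (SE; edgeR, adjusted p = 0.0202). The highest value was that of Very Heavy-10249, and the other drinkers of cohort 2 reached 4667.

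Other transcripts that were higher had varied roles. KMT2B, a histone H3 lysine 4 methyltransferase, had 608 to 958 normalized counts (median 909) in cohort 1 and 1026 to 1424 (median 1217) in cohort 2, with no overlap (log2 fold change 0.47 ± 0.0871 SE; edgeR, adjusted p = 0.0239). Controls of cohort 1 had 1194 to 1345 and those of cohort 2 had 918 to 1206, so drinkers of cohort 1 had the lowest median of the 4 groups. The histone demethylase gene PHF2 (log2 fold change 0.46), the repressor gene CIC (0.48) and PPP1R26 (0.44), a regulatory subunit of protein phosphatase 1, had values that overlapped slightly between the cohorts. The zinc finger gene SALL3 ran from 121 to 229 in cohort 1 and from 278 to 369 in cohort 2, with no overlap (log2 fold change 0.81). FOXB1, a forkhead transcription factor, had the second largest change, after CST3, among called transcripts that were higher and counted in all 17 drinkers, 1.17 ± 0.23 (SE; edgeR, adjusted p = 0.031). Its ranges of 62.0 to 110 and 81.3 to 302 overlapped. Of 30 tested transcripts in a list of chromatin modifying enzymes, 1 passed (KMT2B), 10 were higher and 0 lower at an unadjusted p under 0.05, against 7.55% and 6.78% of all transcripts tested. The list's median log2 fold change was 0.24 in drinkers and −0.04 in controls, and the 10 include HDAC3 and KDM5B, each listed at 0 in all 8 drinkers of cohort 1 and in 7 of 9 of cohort 2. With trends on GC content and length subtracted the median was 0.10, and without the 3 drinkers with few CYTB counts it was 0.145.

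SHANK3, the postsynaptic scaffold of excitatory synapses, ran from 502 to 915 (median 587) in cohort 1 and from 702 to 1647 (median 1129) in cohort 2. The ranges overlapped, and the log2 fold change was 0.73 ± 0.162 (SE; edgeR, adjusted p = 0.0476). NSMF, which links NMDA receptors to the nucleus, had a log2 fold change of 1.15, and the calcium-binding proteins CPNE6, CPNE7 and NECAB2 had 0.95, 0.63 and 0.99. Of these only CPNE7 did not overlap between cohorts (259 to 397 against 411 to 546 normalized counts). The potassium channel gene KCNC4 (0.55), the sorting receptor gene SORCS2 (0.76) and the scaffold gene CASKIN2 (0.42) also passed. Of 28 tested transcripts in a list of glutamate receptors and their scaffolds, SHANK3 passed, and 5 were higher and 0 lower at an unadjusted p under 0.05, against 7.55% and 6.78% of all transcripts tested. The median of that list was 0.09 in drinkers (0.05 to 0.19 when 1 was left out) and 0.06 in controls, against 0.01 over all transcripts tested in drinkers. With trends on GC content and length subtracted it was −0.00352. SREBF2, the transcription factor that drives cholesterol synthesis, was higher without overlap (6967 to 9094 against 9218 to 10573 normalized counts; log2 fold change 0.26 ± 0.0561 SE; edgeR, adjusted p = 0.0405). Of 19 tested transcripts of cholesterol synthesis and uptake, SREBF2 was the 1 that passed, and 5 others were lower at an unadjusted p under 0.05 (6.78% of all transcripts tested), among them SQLE, a rate-limiting enzyme of the pathway (log2 fold change −0.44; adjusted p = 0.0538).

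Among transcripts lower in cohort 2, the lowest p of all belonged to CDKN2AIPNL (ENSMMUT00000092265.1, chromosome 6 from 131863137 to 131874883). It had 531 to 626 normalized counts (median 586) in cohort 1 and 337 to 416 (median 400) in cohort 2. All 8 values of cohort 1 lay above all 9 of cohort 2, and the log2 fold change was −0.58 ± 0.0709 (SE; edgeR, adjusted p = 0.00243). Controls had 274 to 550 in cohort 1 and 441 to 514 in cohort 2, a log2 fold change of 0.15. PSMA3, a subunit of the 20S proteasome core, ran from 1110 to 1503 (median 1299) in cohort 1 and from 888 to 1088 (median 968) in cohort 2, without overlap (log2 fold change −0.43 ± 0.0696 SE; edgeR, adjusted p = 0.0175). Of 30 tested proteasome transcripts PSMA3 was the 1 that passed, 13 were lower and 0 higher at an unadjusted p under 0.05, against 6.78% and 7.55% of all transcripts tested. The median was −0.17 in drinkers and 0.04 in controls, and −0.08 in drinkers with trends on GC content and length subtracted.

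Nuclear genes of oxidative phosphorylation encode most subunits of the respiratory chain and of ATP synthase, which make most of a neuron's ATP. Of 54 tested, 4 passed in the lower direction and 0 in the higher, and 31 were lower and 0 higher at an unadjusted p under 0.05, against 6.78% lower over all transcripts tested. The median log2 fold change was −0.25, while it was 0.01 in controls, and leaving out any 1 drinker kept it between −0.28 and −0.21. It was −0.27 with the GC trend subtracted, −0.14 with trends on GC content and length subtracted and −0.15 without the 3 drinkers. NDUFB5, a subunit of complex I, had 2399 to 3399 normalized counts (median 2889) in cohort 1 and 2149 to 2554 (median 2240) in cohort 2. The ranges overlapped, and the log2 fold change was −0.34 ± 0.0643 (SE; edgeR, adjusted p = 0.0246). ATP5PB of ATP synthase (−0.33), NDUFA12 of complex I (−0.38) and UQCRB of complex III (−0.39) were the others of this list. NDUFV3, a complex I subunit outside the list, was also lower (231.6 to 476 against 156 to 256 normalized counts; log2 fold change −0.69; edgeR, adjusted p = 0.048).

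Other lower transcripts named by their p encode proteins of varied roles. RHEB, the small GTPase that activates mTORC1, ran from 2435 to 3226 (median 2725) in cohort 1 and from 1897 to 2304 (median 2177) in cohort 2, without overlap (log2 fold change −0.38 ± 0.0644 SE; edgeR, adjusted p = 0.0202). TATDN1, a putative deoxyribonuclease, also did not overlap (613 to 885 against 376 to 594 normalized counts; log2 fold change −0.64 ± 0.104 SE; edgeR, adjusted p = 0.0175). The mitochondrial thioesterase gene ABHD10 (−0.34), MMADHC, which acts in vitamin B12 metabolism (−0.44), and the sorting nexin gene SNX10 (−0.71) were lower without overlap. SMYD2, a lysine methyltransferase (−0.50), cyclin G1 (CCNG1, −0.45), the glutaredoxin GLRX3 (−0.38), KCTD9 (−0.63) and ANKRD46 (−0.43) overlapped between the cohorts.

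The largest changes among lower transcripts counted in all 17 drinkers were those of STMN1 and ND1. STMN1 encodes stathmin, which destabilizes microtubules (ENSMMUT00000000943.4, chromosome 1 from 198894363 to 198900765). Drinkers of cohort 1 had 177 to 279 normalized counts (median 218) and those of cohort 2 had 4.31 to 93.9 (median 70.6), a log2 fold change of −1.84 ± 0.374 (SE; edgeR, adjusted p = 0.0358). The cohorts did not overlap in drinkers, whereas controls had 11.9 to 60.1 in cohort 1 and 21.5 to 80.0 in cohort 2, so the cohort 1 drinkers were the group with high counts. VAMP1, a vesicle SNARE of fast-firing neurons, had 5229 to 16733 normalized counts in cohort 1 and 4026 to 6353 in cohort 2 (log2 fold change −0.95 ± 0.211 SE; edgeR, adjusted p = 0.0475). It was the 1 of 27 tested transcripts of synaptic vesicle release that passed, where 0.385% of all transcripts tested passed as lower. At an unadjusted p under 0.05, 3 were lower and 0 higher, against 6.78% and 7.55% of all transcripts tested. That list's median was 0.05 in drinkers (−0.04 to 0.11 when 1 was left out, −0.06 with trends on GC content and length subtracted) and 0.22 in controls. ENTPD3, an ectonucleotidase (−0.73), and RELL2 (−0.86) were the others of large size.

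ND1, a mitochondrially encoded subunit of complex I, had 219053 to 684357 normalized counts (median 347800) in drinkers of cohort 1 and 24650 to 195441 (median 127771) in cohort 2. The log2 fold change was −1.73 ± 0.324 (SE; edgeR, adjusted p = 0.0239). Drinkers Heavy-10208, Very Heavy-10212 and Very Heavy-10214, with few CYTB counts, had the highest ND1 counts (618301, 564544 and 684357), and Very Heavy-10249 had the lowest. The cohorts did not overlap. Without these 3 drinkers the log2 fold change was −1.18 (edgeR, adjusted p = 0.161). In controls ND1 ran from 147271 to 491588 in cohort 1 and from 109281 to 144987 in cohort 2, with no overlap and a log2 fold change of −1.27 (edgeR, unadjusted p = 0.0115, adjusted p = 1.0). That difference had the same direction as in drinkers and did not pass. Of 13 mitochondrially encoded transcripts ND1 was the 1 that passed, where 0.385% of all transcripts tested passed as lower. At an unadjusted p under 0.05, ND1, ND3 and ATP6 were lower and 0 higher, against 6.78% and 7.55% of all transcripts tested. The median of the 13 was 0.10 (−0.0019 to 0.197 when 1 drinker was left out, and −0.21 without the 3 with few CYTB counts). The mitochondrial share of counts did not separate the cohorts, as given above.

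**Figure D4:**
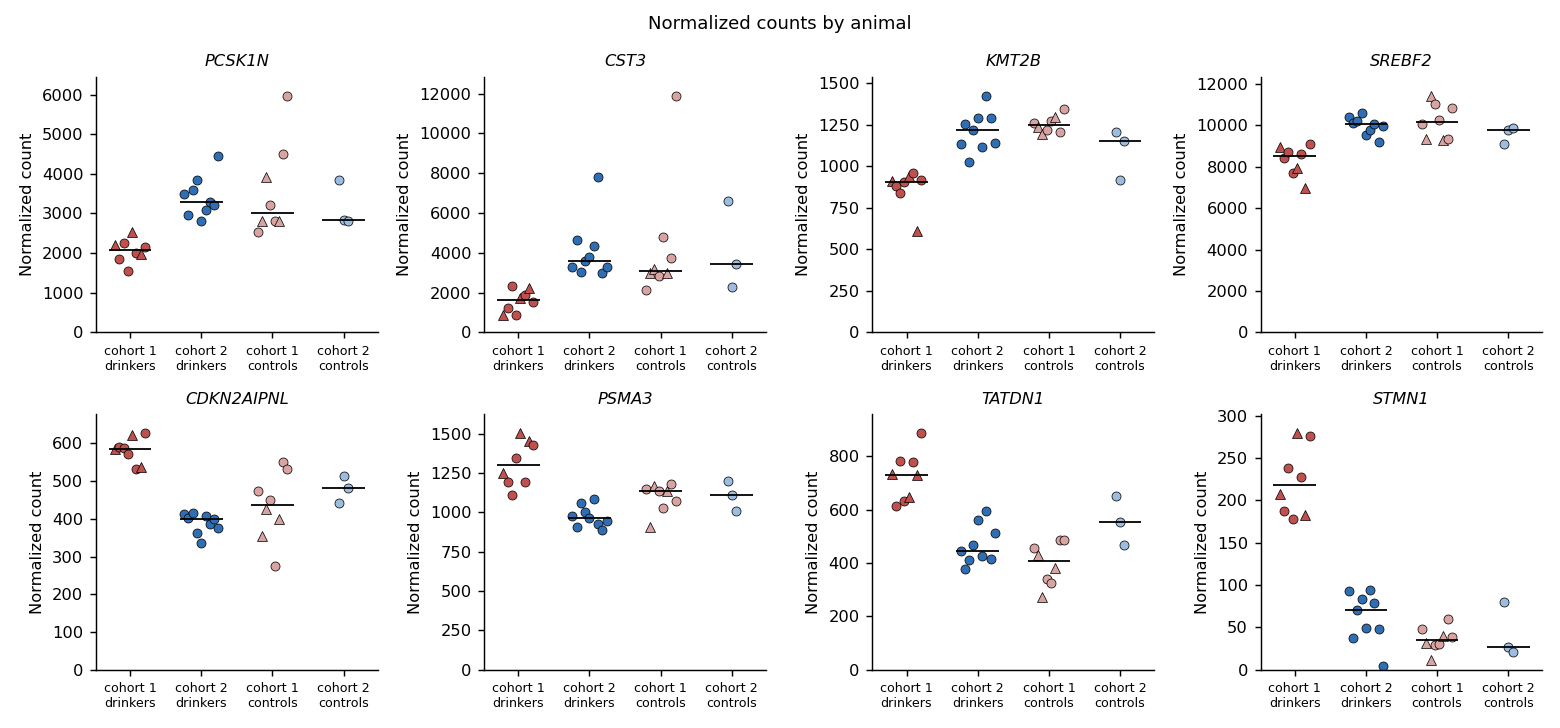
Normalized counts (vertical axis, from 0) of 8 transcripts by animal in the 4 groups, with group medians as lines and, as triangles, the 3 libraries with the lowest CYTB counts in each cohort 1 group. In drinkers the cohorts do not overlap for any of the 8, and cohort 1 drinkers hold the lowest median in the upper row and the highest in the lower row.

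Of the 104 transcripts, 6 were listed at 0 in some drinkers. PTGR2, a prostaglandin reductase, was at 0 in all 8 drinkers of cohort 1, with counts of 58, 54, 4, 38, 22, 13, 13, 23 and 8 in cohort 2, which is at least 7.89-fold higher against a floor of 3 counts per library. PLEKHA4 was at 0 in all 8 drinkers of cohort 1 and in 1 of cohort 2, with up to 132 counts in the other 8 (at least 22.0-fold higher). UBA1, the ubiquitin-activating enzyme that every cell uses, was also listed at 0 in all of cohort 1 and at 0 to 115 counts in cohort 2 (at least 13.2-fold higher). A 0 in this table is therefore a 0 for the listed transcript and not for the gene. The mitochondrial peptidase gene PITRM1 had 7 counts in Heavy-10209 and 0 in the other drinkers of cohort 1, and 35 to 297 in 8 of 9 drinkers of cohort 2. In the other direction NLRP1, an inflammasome sensor, had 0 counts in all 9 drinkers of cohort 2 and 0 to 159 in cohort 1 (at least 21.7-fold lower), and PLVAP of endothelial cells had 4 counts in 1 drinker of cohort 2. Controls of cohort 1 had counts of PTGR2, PLEKHA4 and UBA1 in 6, 7 and 4 of 8 animals, and the others were at 0. Of 9063 transcripts with a mean of at least 50, 243 to 544 were at 0 in each drinker of cohort 1 and 127 to 219 in each of cohort 2.

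In controls, 0 transcripts passed between the cohorts in edgeR's test (8 against 3 animals), with 463 (3.36%) at an unadjusted p under 0.05, where DESeq2's Wald test called 61 and limma-voom 1. In simulated counts of the same size, edgeR found 45 of 100 transcripts changed by 1 on the log2 scale in controls and 59 of 100 in drinkers. Calls of unchanged transcripts in simulated controls were 3 by edgeR, 48 by the Wald test and 10 by limma-voom. In simulated drinkers they were 10, 49 and 4. The 104 transcripts of drinkers had the same sign in controls in 33 cases (31.7%), against 47.9% of all transcripts tested. For those higher in drinkers of cohort 2 the share was 22 of 51 and for those lower 11 of 53. The mean of cohort 1 controls lay closer to that of cohort 2 drinkers than to that of cohort 1 drinkers for 91 of the 104 (87.5%), and for 62.8% of all transcripts tested. The same held for the mean of cohort 2 controls for 70 of the 104 (67.3%), and for 61.0% of all transcripts tested.

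The difference between the drinkers' and the controls' cohort differences passed for 2 transcripts (0.0145% of those tested), TATDN1 and RHEB. TATDN1 was lower in cohort 2 among drinkers and higher among controls (271 to 487 normalized counts in cohort 1 and 466 to 651 in cohort 2), with a difference of −1.12 ± 0.198 on the log2 scale (SE; edgeR, adjusted p = 0.0399). RHEB showed the same pattern (1938 to 2504 and 2229 to 2764 in controls), with a difference of −0.63 ± 0.112 (SE; edgeR, adjusted p = 0.0399). Both rest on 3 controls of cohort 2. Without Control-10241 or Control-10245, 0 transcripts passed, and without Control-10250 there were 4. With the GC trend subtracted, or without the 3 animals of lowest CYTB counts in each cohort 1 group, 0 passed (lowest adjusted p = 0.177 and 0.296 in edgeR). At an unadjusted p under 0.05 the interaction held for 90 of the 104 transcripts, whose drinker difference enters it, and for 9.64% of all transcripts tested.

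The cohorts differ in their mix of drinking categories. With Very Heavy or not as a covariate 50 transcripts were higher and 69 lower, of which 80 were among the 104. This covariate pooled Heavy, Low and Binge drinkers, so the Low drinker of cohort 1 and the Binge drinkers of cohort 2 were not accounted for. Among drinkers labelled Very Heavy, 3 of cohort 1 and 6 of cohort 2, 27 were higher and 6 lower. Of the 3, Very Heavy-10212 and Very Heavy-10214 are among the drinkers with few CYTB counts. Of the 104, all kept their direction in the Very Heavy animals, 102 had an unadjusted p under 0.05 and 6 passed, with log2 fold changes at a median of 1.13 of those over all drinkers.

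Markers of cell types were examined beside these differences. The dopamine neuron markers TH and SLC6A3 varied widely within each cohort, TH from 121 to 15397 normalized counts in cohort 1 and 222 to 8245 in cohort 2, and SLC6A3 from 229 to 18005 and 193 to 13140. Of 14 dopamine neuron markers 0 passed in edgeR and 1 was lower at an unadjusted p under 0.05 (6.78% of all transcripts tested). Their median log2 fold change was −0.35, and it was −0.70 without drinker Very Heavy-10248 and −0.00059 without Heavy-10209. It was −0.02 without Very Heavy-10215, −0.21 without Very Heavy-10244, −0.23 without Very Heavy-10247 and −0.54 without the 3 drinkers with few CYTB counts. Of 13 tested pan-neuronal markers 0 passed, but 6 were lower at an unadjusted p under 0.05 (NEFM, NEFL, NEFH, SNAP25, UCHL1 and THY1), against 6.78% of all transcripts tested. The list's median was −0.59 in drinkers and 0.25 in controls, and −0.30 in drinkers without the 3 with few CYTB counts. The summed pan-neuronal level ran from 143034 to 642582 normalized counts in cohort 1 and from 118277 to 178102 in cohort 2. The part of neuronal content in the lower nuclear oxidative phosphorylation transcripts was not tested.

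Glial and other markers were examined in the same way. The oligodendrocyte gene MBP had a log2 fold change of −0.08, with overlapping ranges. Its direction turned in the fits on Very Heavy drinkers and with cell type scores as covariates. The oligodendrocyte score includes MBP itself, so the turn with scores cannot test MBP. Of 7 tested oligodendrocyte precursor markers 0 passed, 3 were higher at an unadjusted p under 0.05 (7.55% of all transcripts tested) and the median was 0.53 in drinkers and 0.21 in controls. In drinkers it was 0.205 without Heavy-10251, 0.211 without Very Heavy-10248, 0.338 without the 3 with few CYTB counts and 0.275 with trends on GC content and length subtracted. The summed precursor level ran from 6605 to 10017 in cohort 1 and from 8457 to 12899 in cohort 2. Of 12 astrocyte markers 0 passed and 4 were higher at an unadjusted p under 0.05 (7.55% of all transcripts tested), among them AQP4, whose listed transcript was at 0 in all 8 drinkers of cohort 1 and in 3 of 9 of cohort 2. GFAP was at 2.3 to 160 normalized counts in 7 drinkers of cohort 1 and 954 in Heavy-10209, and at 8.37 to 125 in cohort 2. Microglial AIF1 (−0.12), endothelial CLDN5 (0.23), GAD1 of GABA neurons (−0.63) and SLC17A6 of glutamate neurons (−0.34) did not pass. Of 6 tested glutamate neuron markers 3 had a positive and 3 a negative log2 fold change, with a median of 0.0138. TPH2 of serotonin neurons was at or under 30.3 normalized counts in every drinker but Heavy-10209. With scores of dopamine neurons and oligodendrocytes as covariates 65 transcripts were higher and 104 lower, of which 61 were among the 104 called without them.

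**Figure D5:**
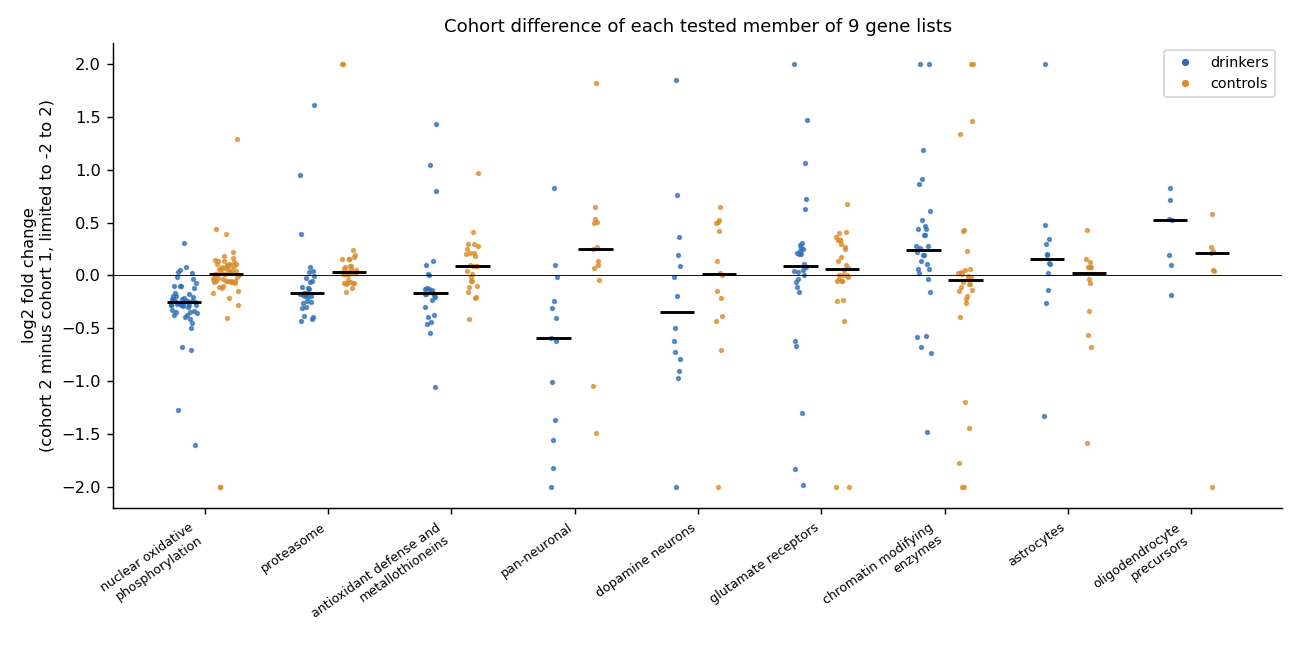
Log2 fold change between cohorts (cohort 2 minus cohort 1, drawn within −2 to 2) of each tested member of 9 gene lists, in drinkers (blue) and controls (orange), with the median of each list as a line. The nuclear oxidative phosphorylation list has a median of −0.25 in drinkers and 0.01 in controls, and the chromatin list 0.24 and −0.04.

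In each of the 9 other cell type lists 0 transcripts passed in edgeR, with between 0 and 3 of them at an unadjusted p under 0.05, where all transcripts tested had 14.3%. Glutamate neuron markers had 2 higher of 6 tested and GABA neuron markers 1 higher and 1 lower of 9. Oligodendrocyte markers had 1 higher and 2 lower of 16, and the remaining lists held 0 or 1. Of the other gene groups examined, 7 of 25 antioxidant transcripts were lower and 0 higher at an unadjusted p under 0.05 (6.78% and 7.55% of all transcripts tested), with a median of −0.17 and 0 passing. The 7 include SOD2, the superoxide dismutase of mitochondria (log2 fold change −0.30), and PRDX2, a peroxiredoxin (−0.39). Of 24 tested transcripts of hypoxia and glycolysis, 6 were lower and 1 higher at an unadjusted p under 0.05, with 0 passing. The median was −0.11, and −0.05 without the 3 drinkers with few CYTB counts, −0.069 without Binge-10243 and −0.165 without Heavy-10211. Of 63 ribosomal protein transcripts 5 were lower at an unadjusted p under 0.05, near the 6.78% of all transcripts tested. Their median was −0.06 (−0.14 to −0.00462 when 1 drinker was left out), and 0.05 with trends on GC content and length subtracted. No transcript passed in edgeR among 25 of dopamine receptors and signaling, 7 of opioid receptors and peptides, 22 of GABA and glycine receptors, 12 of alcohol and aldehyde metabolism, 16 immediate early genes, 17 of glucocorticoid response and 18 of the circadian clock. At an unadjusted p under 0.05 these lists held 4, 0, 6, 1, 1, 4 and 3 transcripts in either direction, where all transcripts tested had 14.3%. The same was found for 18 cytosolic chaperones, 18 of the endoplasmic reticulum, 23 of interferon response and 30 of the spliceosome, with 6, 3, 1 and 6 at an unadjusted p under 0.05.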

How the data were processed

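VTA RNA of 28 macaques was sequenced with 1 library each. Per the labels and the study's methods, the authors trimmed reads with Trim Galore 0.6.7 and quantified them with Salmon 1.9.0 on Mmul_10. They deposited estimated counts, not normalized, for 16886 entries, each 1 Ensembl transcript with 1 gene symbol. The 1 entry without a symbol (1.16e-05% of counts) was left out. Groups came from labels and cohorts from animal numbers. P-values measure the spread between animals.

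Estimated counts were rounded. A transcript was tested if 3 or more of the animals had 5 or more counts of it (13769 passed). Cohorts were compared with edgeR 4.0.16 (TMM, quasi-likelihood F test), drinkers alone in 1 fit, and controls and the interaction in a fit of 4 groups. Standard errors are the log2 fold change divided by the root of F. Components used variance stabilized counts of DESeq2 1.42.0, and alternatives used its Wald test and limma 3.58.1 (voom). R was 4.3.3 and Python 3.11.15. Library measures were compared by exact permutation, two-sided. In simulated counts edgeR found 16 of 100 drinker changes of 0.5 and 59 of 100 of 1.0 on the log2 scale, with 10 other calls. The most similar drinker libraries (Low-10210 and Very Heavy-10214) had identical counts for 14.4% of transcripts, so each was kept as its own animal. Positions, GC content (96.4% of those tested) and lengths came from RefSeq Mmul_10 by symbol and may describe another transcript of the gene than the one counted.

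Named genes are, among called transcripts with a mean normalized count of at least 50, the 12 of lowest p in each direction; the 5 of largest change in each direction counted in all 17 drinkers; the interaction calls; the lowest p in each list and direction; and 11 cell type markers, of which HBB was not in the table used. The result of 1 further marker is not reported here. ATP5PB, NDUFA12, UQCRB, SQLE, the neuronal, antioxidant and mitochondrial genes beside these, HDAC3, KDM5B, MPC1, CAPZB, TRNP1, NDUFV3 and the transcripts listed at 0 were named after their values were seen. The members and the 34 lists were chosen with earlier results of these data known, and lists got no test.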

Additional observations from a re-analysis of the deposited data

Results flagged for a closer look

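TATDN1 and RHEB were flagged because the difference between cohorts itself differed between drinkers and controls, by −1.12 and −0.63 on the log2 scale (edgeR, adjusted p = 0.0399 for both). Their values in each group are in the report.

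Single drinkers stood far from the rest of their cohort, by Dixon's 95% limit, in 11 of 103 groups examined (10.7%), where chance gives about 5%. In cohort 1, Heavy-10209 had 954 normalized counts of GFAP (the others 2.3 to 160), 149 of TPH2 (0 to 30.3) and 6.06 of PITRM1 (0 in the others). Drinker Heavy-10208 had 8020 of SLC17A6 (1370 to 4250), Very Heavy-10215 had 18000 of SLC6A3 (229 to 7040) and Very Heavy-10214 had 608 of KMT2B (841 to 958). In cohort 2, Very Heavy-10244 had the lowest total, 16400000 counts against 20900000 to 24700000, and 2390 normalized counts of KCNC4 (1350 to 1870). Drinker Very Heavy-10249 had 7800 of CST3 (2970 to 4670), Heavy-10251 had 561 of ENTPD3 (302 to 407) and Very Heavy-10252 had 81.9 of AQP4 (0 to 35.5).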

How the results depend on the processing

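Against 104 transcripts called in drinkers, 577 were called by DESeq2's Wald test, 183 by limma-voom, 263 in the fit with controls as 4 group means, 169 with cell type scores as covariates, 33 in Very Heavy drinkers, 8 with the GC trend subtracted, 3 with GC and length trends, 2 without the 3 drinkers with few CYTB counts and 0 without them and with the GC trend. Leaving out 1 drinker gave 2 to 150. In simulated drinker counts the Wald test made 49 calls of unchanged transcripts and edgeR 10. DESeq2's size factors gave 43 higher and 70 lower (38.1% higher against 49.0%), the length trend 26.4% higher and limma-voom 64.5%, where the median of all transcripts was 0.117 against 0.0147. The counts for other filters, thinning, the Very Heavy covariate and without mitochondrial transcripts lay within 1.5 times. In controls 0 were called, with 61 by DESeq2's Wald test, 1 by limma-voom and 0 to 0 without 1 of the 3 cohort 2 controls (those of cohort 1 were not left out singly). For the interaction, 2 became 150 by DESeq2's Wald test, 0 with the GC trend, 0 without the 3 animals of lowest CYTB counts in each cohort 1 group and 0 to 4 without 1 of the same 3 controls.

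Component 2, on which the cohorts differed by 3.92 (exact permutation, adjusted p = 0.0452), no longer separated them over all transcripts (3.98, adjusted p = 0.338), in log2 CPM (3.71, 0.973), without mitochondrial transcripts (0.424, 0.899) or without the 3 drinkers (1.73, 0.644). The difference in total counts was −2090000 without the 3 drinkers and −926000 to 846000 without 1 drinker, in mitochondrial share −3.27 and −0.62 to 1.74 percentage points, and in the share of the 10 most abundant transcripts −2.69 and −0.634 to 1.43. Transcripts detected differed by 993 to 1190 without 1 drinker, the GC slope by 0.0467 to 0.0665 (0.0622 without the 3, adjusted p = 0.0759) and the length slope by 0.328 to 0.459. The cause of these shifts was not tested.

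Of 745 values of named genes under alternatives other than leaving out 1 animal, 522 kept direction and side of the threshold, 215 kept the direction and lost the call and 8 turned, all of markers that had not passed. AIF1 turned to 0.0256 (GC and length trends) and 0.18 (cell type scores), MBP to 0.18 (scores) and 0.0684 (Very Heavy), SLC17A6 to 0.12 without the 3 drinkers and 0.155 with the GC trend as well, SLC6A3 to 0.016 (scores) and TPH2 to 0.395 (limma-voom). The scores include MBP and SLC6A3 themselves, so their turns in that fit cannot test these genes. Without 1 drinker SLC6A3 ran from −0.441 to 0.844, TH from −1.01 to 0.025 and TPH2 from −1.59 to 0.137. The GC trend in drinkers was planned. The GC trend in controls and in the interaction, the length trends and the fits without animals of lowest CYTB counts were added after the data were seen. The GC and length slopes of libraries were added too. No paired analysis was possible because the groups share no replicate numbers. In simulated counts of these drinkers, changes of 0.5 on the log2 scale were found in 16 of 100 transcripts, so most of that size go uncalled.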
